A study of Drosophila melanogaster with 9 samples.

Results

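A group of 27 probe sets was chosen by their measured intensities in fly heads, which were arranged in 1 direction across a pair of *dLmo* mutants and their control. Every *EP1306* array lay above every control array, every *BxJ* array lay below every control array, and the *EP1306* mean exceeded the *BxJ* mean by at least 0.4 on the log2 scale, after 16 was added to each intensity. Of 18769 probe sets that are not array controls, 28 met this rule. The 1 that belongs to *Alk* was left out by design, which leaves 27 members. Of these, 22 carry 1 gene name in the array annotation, *phr* was named from the annotation identifier in the study's supplementary table, and 4 carry a transcript or transposon identifier in place of a gene name. The rule read all 9 arrays and all 3 differences between genotypes. The order itself is therefore how the members were found and is described here without a test.

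LIM-domain-only (LMO) proteins consist of LIM domains and bind no DNA of their own. They bind the cofactor that is called Chip in flies and LDB in mammals, which also bridges LIM-homeodomain transcription factors, and an excess of the fly protein dLMO interferes with those complexes in the wing. In the adult fly, *dLmo* is known for effects on circadian locomotor activity and on behavioral responses to cocaine and ethanol.

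Head RNA of untreated adult males, aged 2 to 3 days, was read on Affymetrix Drosophila 2.0 arrays in 3 genotypes with 3 arrays apiece. *EP1306* is a loss-of-function allele of *dLmo*, *BxJ* is a gain-of-function allele of the same gene, and *w;iso*, named the control from here on, is the genetic background strain. Both mutant lines had been outcrossed to this *w1118* stock, which is isogenic for chromosomes II and III, while *dLmo* lies on the X chromosome. Each kind of mutant is represented by 1 allele. Per the labels, flies from 3 bottles were joined in 1 pool of 600 and the RNA was divided, while the study's methods speak of 3 groups, each of 200 heads. The spread between arrays may thus be technical, and p-values measure only that spread. In whole heads, fewer cells of a type and less RNA per cell cannot be told apart.

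The arrays were alike in median intensity (15.9 to 17.8) and correlated at 0.994 to 0.998 within a genotype. They differed at 18 probe sets for spiked-in RNA, which are not among the 18769. There the mean log2 signal was 9.39 ± 0.458 in *EP1306*, 9.23 ± 0.492 in *BxJ* and 10.63 ± 0.695 in the control (SD, n = 3 arrays each). Every control array (9.832 or more) lay above every mutant array (9.779 or less). The bearing of this difference on the members was not tested. *Bx*, the gene symbol of *dLmo*, was read by 2 probe sets. At the brighter one, intensities were 176, 106 and 167 in *EP1306*, 676, 623 and 672 in *BxJ*, and 215, 202 and 115 in the control. *BxJ* lay above the control by 1.84 on the log2 scale (limma, adjusted p = 0.02502), whereas the *EP1306* arrays overlapped the control arrays (-0.21, adjusted p = 0.818). The other probe set gave differences of 1.65 for *BxJ* (adjusted p = 0.009045) and -0.42 for *EP1306* (adjusted p = 0.460). There the *EP1306* arrays (21.9, 22.5 and 22.4) all lay below the control arrays (38.9, 46.0 and 23.7), with an unadjusted p of 0.03701 in the limma fit. The call of *BxJ* at the brighter probe set was lost in 8 of 18 alternative fits, among them those without *EP1306* replicate 3, without *w;iso* replicate 2 and without each *BxJ* array in turn (adjusted p from 0.001376 to 0.135 over all 18). Hence, by these probe sets, *Bx* RNA was higher in *BxJ*, and a lower level in *EP1306* did not pass the adjusted threshold. Photoreceptor markers, of a cell type of the head, were the brightest of the neural lists (array medians of 12.1 to 12.4 on the log2 scale for 10 genes measured of 18). The muscle list was brighter (12.9 to 13.2 for 15 genes measured of 19). Transcripts of the male accessory gland, an abdominal organ, were also read: over 17 genes measured of 20, the mean log2 signal was 6.15 ± 0.852 in *EP1306*, 7.65 ± 0.879 in *BxJ* and 6.06 ± 0.623 in the control (SD, n = 3 arrays each).

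Of all probe sets, 0.336% (63) were fully arranged in it without overlap and 0.149% (28) also had the required difference. By comparison, every *EP1306* array lay above every *BxJ* array in 11.3% of probe sets, every *EP1306* array above every control array in 4.15%, and every *BxJ* array below every control array in 27.6%. Among the 6 possible orders of the 3 genotypes without overlap, the selected one was neither the most nor the least frequent. From low to high, *EP1306*, *BxJ*, control held for 77 probe sets, 36 of them with a difference of 0.4 between its ends. The order *BxJ*, *EP1306*, control held for 65 (16 with the difference), and control, *BxJ*, *EP1306* for 36 (26). The exact reverse of the selected order held for 27 (19), and control, *EP1306*, *BxJ* for 15 (10). Just inside the limit of 0.4 stood *Pph13* (0.44), *CG8206* (0.43) and *CG7824* (0.41). Just outside it stood *Ddx56* (0.39), *Cpn* (0.38) and *CG8833* (0.37), which had the same order.

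Across the members, *EP1306* exceeded *BxJ* by a median of 0.64 on the log2 scale, within a range of 0.41 to 1.56, and the median over all probe sets was 0.01. The distance was not shared evenly around the control. The median difference from the control was 0.47 in *EP1306* (0.17 to 1.52) and -0.24 in *BxJ* (-1.04 to -0.02). In 20 of 27 members the *EP1306* difference was the larger one, and in 14 it was more than 2 times as large as the *BxJ* difference. The remaining 7, *CG9377*, *CG31036*, *Dbp80*, *CG5953*, *CG7407*, *Pph13* and *CG8206*, were displaced more in *BxJ*. Of the 20, 8 were among the 9 members with a mean log2 signal below 6, and 12 were among the 18 brighter ones. The same share over other probe sets was not computed.

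**Figure D1:**
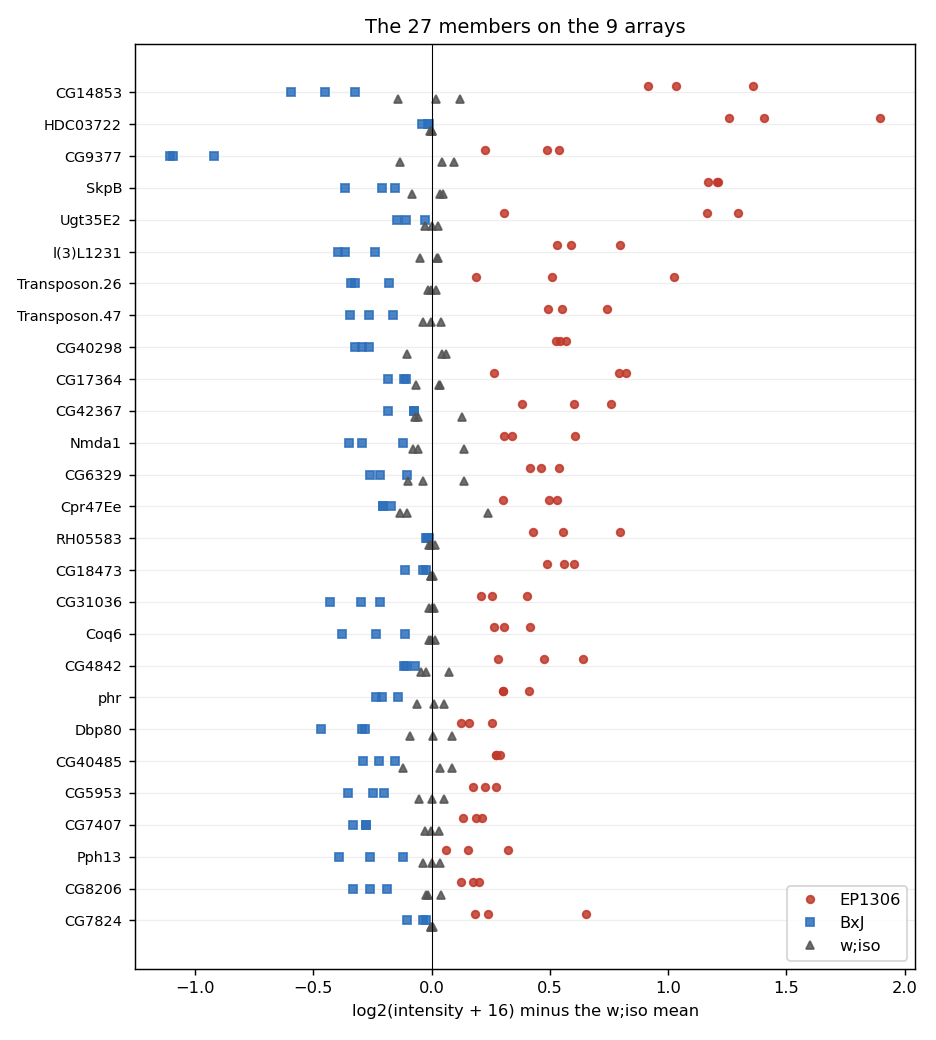
Signal of the 27 members on each of the 9 arrays, as log2(intensity + 16) minus the control (*w;iso*) mean of the same probe set. Each point is 1 array (red circles *EP1306*, blue squares *BxJ*, grey triangles *w;iso*), members run from the largest *EP1306* minus *BxJ* difference at the top (1.56) to the smallest at the bottom (0.41), and the blue and grey points nearly touch in many members while the red points stand apart in most.

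The distance between neighboring arrays shows which side of the order was narrow. In 12 members the highest *BxJ* array and the lowest control array were less than 0.05 apart on the log2 scale, whereas the lowest *EP1306* array came that near to the highest control array in 2 members, *Dbp80* and *Pph13*. Over all probe sets, *BxJ* arrays all below the control were also more frequent (27.6%) than *EP1306* arrays all above it (4.15%). Gaps of this size were not counted over other probe sets. Both gaps exceeded 0.1 in 10 members, *CG14853*, *CG9377*, *l(3)L1231*, *CG40298*, *CG31036*, *Coq6*, *CG5953*, *CG7407* and the probe sets Transposon.26 and Transposon.47. The *BxJ* difference was smaller than the pooled SD of the member's own replicates in 7 members, and the *EP1306* difference in 0.

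The members were brighter than most probe sets, an outcome that the rule itself favors. The constant added to each intensity shrinks the log2 differences of dim probe sets, so fewer of these can reach the limit. The brightness is therefore described here and nothing is read from it. The members had a median log2 signal of 8.87, against 5.05 over all probe sets. Of the members, 9 of 27 (33.3%) had a mean below 6, against 58.0% of all probe sets. For those 9 dim members the median difference from the control was 0.58 in *EP1306* and -0.10 in *BxJ*, and for the 18 brighter ones it was 0.42 in *EP1306* and -0.26 in *BxJ*. The low end of the order was thus mostly a few intensity units wide in the dim members.

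**Figure D2:**
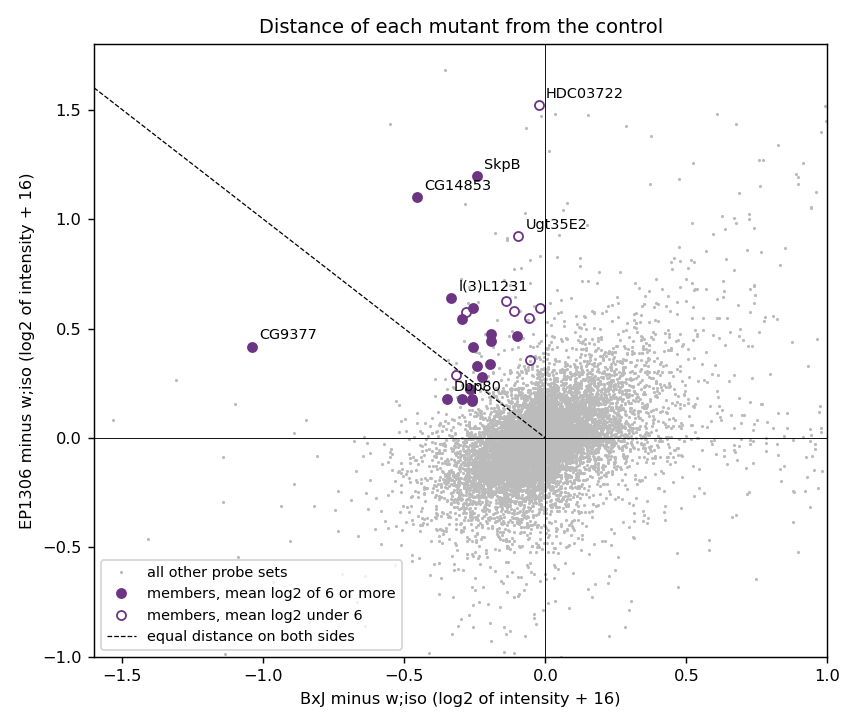
Difference of *EP1306* from the control (vertical) against that of *BxJ* (horizontal), both as log2 of intensity + 16, for the members (purple) and 18742 other probe sets (grey, 163 of them outside the axes). The rule placed all members in the upper left, 20 of them above the dashed line of equal distance and 7 below it, with *CG9377* alone far to the left at -1.04.

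Fitted with limma over all probe sets, 2 members passed an adjusted p of 0.05 as lower in *BxJ* than in the control, *CG9377* and *CG7407*, where 0.144% of all probe sets did and 0.288% passed in either direction. The call of *CG7407* was lost in 15 of 18 alternative fits, that without any 1 array among them (adjusted p up to 0.2157), and that of *CG9377* in 1, the fit without the 3 arrays richest in accessory gland transcripts (adjusted p up to 0.07804). For *EP1306* against the control, 12 members passed as higher, where 0.453% of all probe sets did and 1.14% passed in either direction. That count was 6 without *w;iso* replicate 2. Between the mutants, 23 members passed as higher in *EP1306* than in *BxJ*, where 0.554% of all probe sets did and 1.23% passed in either direction. The rule used these same contrasts, so the counts describe the members and nothing is read from them.

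*SkpB* encodes a homolog of Skp1, the adaptor that links F-box proteins to cullin in SCF ubiquitin ligases. Its intensities were 852, 827 and 849 in *EP1306*, 275, 320.4 and 308 in *BxJ*, and 368, 338 and 371 in the control. The *EP1306* arrays agreed closely and stood far above the other 6, while the *BxJ* and control arrays came within 0.07 of each other on the log2 scale. In log2 terms the means were 9.75 ± 0.02 in *EP1306*, 8.31 ± 0.11 in *BxJ* and 8.55 ± 0.07 in the control (SD, n = 3 each), a 2.71-fold distance between the mutants, of which most was the 129% excess of *EP1306* over the control. Folds and percentages here are of intensity + 16, which understates the change of dim probe sets.

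The other Skp1 homologs read on the arrays were not arranged in this way. *SkpA*, the main Skp1 of the fly, had 4725, 4569 and 4698 in *EP1306*, 4401, 4283 and 4286 in *BxJ* and 4886, 4729 and 4239 in the control, with overlapping groups and a difference between the mutants of 0.11 (limma, adjusted p = 0.551). *SkpD*, *SkpE* and *SkpF* were read at intensities of 4.6 to 12.4 on all arrays and passed in no contrast.

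The gene directly beside *SkpB* on chromosome arm 2R, *CG18343*, was singled out after its values were seen. Its intensities were 448, 350.4 and 363 in *EP1306*, 73.0, 71.2 and 52.8 in *BxJ* and 74.0, 47.5 and 22.3 in the control. All 3 *EP1306* arrays lay above the other 6, and *BxJ* overlapped the control. *CG18343* exceeded the control in *EP1306* by 2.73 (SE 0.28, limma, adjusted p = 0.003598) and *BxJ* by 2.31 (adjusted p = 0.007631), and differed between *BxJ* and the control by 0.43 (adjusted p = 0.497). Both calls were lost in 1 of 18 alternative fits, the one without the 3 arrays richest in accessory gland transcripts (adjusted p = 0.1104 at most over the 18). None of the other 9 genes within 5 positions of *SkpB* passed in any contrast.

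**Figure D3:**
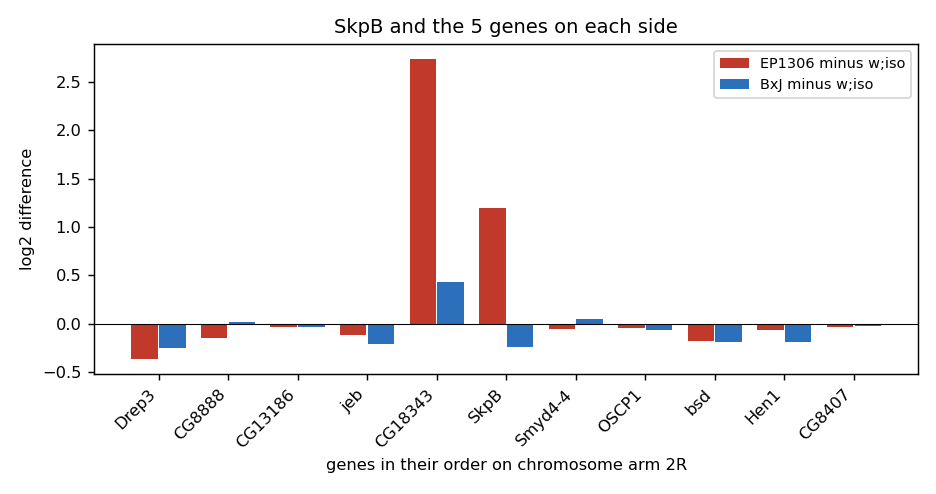
Log2 differences from the control in *EP1306* (red) and *BxJ* (blue) for *SkpB* and the 5 genes on each side of it, in gene order on chromosome arm 2R. *CG18343* (2.73) and *SkpB* (1.20) were higher in *EP1306*, and the red bars of the other 9 genes are below 0.

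*CG9377*, annotated as a serine protease homolog, was the member displaced most in *BxJ*. Its intensities were 823, 658 and 792 in *EP1306*, 289, 252 and 254 in *BxJ*, and 599, 578 and 509.6 in the control. Differences from the control were 33.5% in *EP1306* and -51.4% in *BxJ*, so that the *BxJ* arrays stood far below the other 6 and the *EP1306* and control arrays lay near each other. Log2 means were 9.59 ± 0.17 in *EP1306*, 8.13 ± 0.10 in *BxJ* and 9.17 ± 0.12 in the control (SD, n = 3 each). *CG9395* and *Nnp-1*, the neighbors of *CG9377* on arm 2L, did not pass in any contrast.

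*Coq6* encodes a monooxygenase of ubiquinone synthesis, the electron carrier of the respiratory chain. It had 480.1, 466 and 519 in *EP1306*, 355, 325 and 293 in *BxJ*, and 384, 382 and 389 in the control. The control arrays differed by only a few units and both mutants were clear of them, with differences from the control of 25.6% in *EP1306* and -15.5% in *BxJ*. The 7 other genes of the pathway on the arrays, *Coq2*, *Coq3*, *Coq5*, *Coq7*, *Coq8*, *Coq9* and *qless*, had differences between the mutants of -0.04 to 0.08 and passed in no contrast.

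*Ugt35E2* encodes a UDP-glycosyltransferase, an enzyme family that couples sugars to small lipophilic compounds. Its intensities were 14.8, 45.2 and 39.9 in *EP1306*, 6.50, 8.41 and 7.10 in *BxJ*, and 8.46, 9.39 and 8.94 in the control. *EP1306* replicate 1 was much lower than the other two, and the *BxJ* and control arrays were all in the dimmest range, 0.003 apart at their nearest on the log2 scale. The next gene, *Ugt35B1* of the same family, went the other way. *Ugt35B1* had 242, 178 and 185 in *EP1306*, 535, 504 and 514 in *BxJ* and 646, 591 and 505 in the control. It was lower in *EP1306* than in the control (-1.46, limma, adjusted p = 0.001609) and than in *BxJ* (-1.31, adjusted p = 0.002201), and was chosen for mention after its values were seen. These calls stood in 18 of 18 alternative fits.

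*CG40485*, annotated as a farnesol dehydrogenase, is 1 of the 2 members on the X chromosome. It had 4928, 4922 and 4985 in *EP1306*, 3329.7, 3656 and 3497 in *BxJ*, and 4327, 4183 and 3748 in the control. The *EP1306* arrays were nearly identical (log2 SD of 0.01), and the control arrays spread more widely (log2 SD of 0.11). The adjacent gene *CG40486* was higher in *EP1306* than in *BxJ* by 0.39 (limma, adjusted p = 0.0318), a call that was lost in 8 of 18 alternative fits, including those without *EP1306* replicate 1, 2 or 3, without *BxJ* replicate 2 or 3 and without *w;iso* replicate 2 (adjusted p up to 0.2308). *CG18473*, which encodes a phosphotriesterase-related protein, was dim: 30.7, 27.2 and 29.4 in *EP1306*, 14.0, 12.5 and 14.3 in *BxJ*, and 14.7, 14.8 and 14.9 in the control. *EP1306* stood clear of both other genotypes, which nearly met.

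A probe set listed for *phr*, the photolyase that repairs ultraviolet damage to DNA, had 1469, 1473 and 1587 in *EP1306*, 1028, 1010.2 and 1076 in *BxJ*, and 1234, 1199.6 and 1139.6 in the control. The 3 groups were separate, at 26.4% from the control in *EP1306* and -12.7% in *BxJ*. The study's table also gives *CG12822* and *CG18853* as symbols for this probe set, so its signal may not come from *phr* alone.

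*Nmda1* was among the brightest members. Despite its name it belongs to the TMBIM family of membrane proteins, relatives of the cell death suppressor Bax inhibitor-1, and is no subunit of the NMDA receptor. *Nmda1* had 3263, 3349.8 and 4021 in *EP1306*, 2148, 2071 and 2427 in *BxJ*, and 2908, 2496 and 2536 in the control. All groups were separate, but the highest *BxJ* and the lowest control array were 0.04 apart on the log2 scale. *BI-1*, the fly Bax inhibitor-1, differed between the mutants by 0.17 at its brighter probe set (limma, adjusted p = 0.385), and the NMDA receptor subunit gene *Nmdar1* by -0.19 (adjusted p = 0.826).

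*Cpr47Ee*, a cuticle protein gene, had 749, 653 and 767 in *EP1306*, 466, 454 and 455 in *BxJ*, and 624, 488 and 479 in the control. Control replicate 1 lay nearer to *EP1306* than to the other control arrays. Within the same gene cluster, *Cpr47Ef* was lower in *EP1306* than in *BxJ* (-0.56, limma, adjusted p = 0.02907), a call that was lost in 8 of 18 alternative fits, including those without *EP1306* replicate 2 or 3 and without each *BxJ* array (adjusted p up to 0.1153). *Cpr47Ea*, *Cpr47Eb*, *Cpr47Ec*, *Cpr47Ed* and *Cpr47Eg* passed in no contrast.

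*Dbp80* encodes a DEAD-box RNA helicase of messenger RNA export. Its intensities were 912, 889.7 and 976 in *EP1306*, 584, 662 and 667 in *BxJ*, and 818, 765 and 865 in the control. Differences from the control were 13.2% in *EP1306* and -21.5% in *BxJ*, and on the *EP1306* side the nearest arrays were 0.04 apart on the log2 scale.

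*Pph13* encodes a homeodomain transcription factor of photoreceptors. It had 196, 211 and 239 in *EP1306*, 154, 139 and 171 in *BxJ*, and 183, 193 and 188 in the control. The replicates of each mutant spread about as widely as the mutants lay from the control, with log2 means of 7.85 ± 0.13 in *EP1306*, 7.41 ± 0.14 in *BxJ* and 7.67 ± 0.04 in the control (SD, n = 3 each). Of the other photoreceptor transcription factors examined, *oc* differed between the mutants by 0.37 (limma, adjusted p = 0.475), *gl* by -0.06 (adjusted p = 0.890) and *so* by 0.05 (adjusted p = 0.917). At *gl* both mutants lay above the control, *BxJ* by 0.48 (adjusted p = 0.2693) and *EP1306* by 0.42 (adjusted p = 0.3079). Between the mutants *dve* differed by 0.34 at its brighter probe set (adjusted p = 0.4293), *ss* by 0.09 (adjusted p = 0.9162) and *sens* by -0.01 (adjusted p = 0.9707). *pros* was lower in *EP1306* than in the control (-0.57, adjusted p = 0.03587), a call that was lost in 12 of 18 alternative fits, including that without each *EP1306* and each *BxJ* array (adjusted p up to 0.2496).

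The remaining named members have no role given here. *CG14853*, on arm 3R, had the widest distance of all, with 377, 411 and 519 in *EP1306*, 122, 137 and 151 in *BxJ*, and 211, 173 and 196 in the control. The 3 groups stood well apart. Log2 means were 8.81 ± 0.23 in *EP1306*, 7.25 ± 0.14 in *BxJ* and 7.71 ± 0.13 in the control (SD, n = 3 each), a 2.94-fold distance between the mutants.

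*l(3)L1231*, a gene named for a lethal mutation, had 297, 284 and 345 in *EP1306*, 160.4, 145 and 142 in *BxJ*, and 185, 195 and 196 in the control. *EP1306* differed from the control by 55.7% and *BxJ* by -20.6%, with no array near those of another genotype. *CG40298* had 772, 786 and 763 in *EP1306*, 435, 416 and 425 in *BxJ*, and 548, 542 and 487 in the control, and its mutant arrays were among the tightest of the set (log2 SD of 0.02 in *EP1306* and 0.03 in *BxJ*). The tightest member over all genotypes was *CG7407* (pooled log2 SD of 0.03), with 962, 1016 and 999 in *EP1306*, 691, 719 and 719.8 in *BxJ*, and 895, 859 and 874 in the control.

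*CG5953* was the brightest member, with 20062, 21473 and 20808 in *EP1306*, 14966, 13903 and 15477 in *BxJ*, and 18439, 17804 and 17145 in the control, close to even distances on both sides (16.8% in *EP1306* and -17.0% in *BxJ*). *CG6329*, with 2095, 1923 and 1984 in *EP1306*, 1197, 1232 and 1334 in *BxJ*, and 1337, 1398 and 1582 in the control, had its highest *BxJ* and lowest control array 0.0033 apart on the log2 scale. *CG4842* and *CG8206* lay at 1399 to 2374 and at 953 to 1388 over all arrays, with differences between the mutants of 0.56 and 0.43. *CG7824*, *CG17364*, *CG42367* and *CG31036* were dim, with *BxJ* and control arrays at 6.08 to 40.2 and *EP1306* arrays at 14.1 to 72.1.

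The 4 members without a gene name were chosen for mention after their values were seen. Transposon.47 was bright, at 2004, 1925 and 2292 in *EP1306*, 1071, 1133 and 1217 in *BxJ*, and 1401, 1362 and 1331 in the control, and well separated on both sides. HDC03722 rested almost wholly on *EP1306*, with 43.4, 76.3 and 49.8 there, 8.53, 8.60 and 8.13 in *BxJ* and 8.71, 8.86 and 8.87 in the control. RH05583 and Transposon.26 were dim, at no more than 21.3 and 47.5 on any array. Of the 27 member probe sets, 8 are of the kind whose probes match several transcripts, which may belong to different genes or copies. These are both transposon probe sets, HDC03722 and those of *CG14853*, *Nmda1*, *CG6329*, *CG5953* and *phr*.

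Further probe sets, 7 in all, read 5 of the member genes, and none of these had the full order. A second probe set of *CG17364* had 49.7, 43.9 and 62.4 in *EP1306*, 19.1, 24.3 and 23.2 in *BxJ*, and 18.8, 17.6 and 18.7 in the control. It shared the *EP1306* excess, but there *BxJ* lay above the control and not below it. The brighter probe set of *CG6329* had 8397, 8587 and 9836 in *EP1306*, 7573, 7239 and 8174 in *BxJ*, and 9006, 8984 and 9047 in the control, with *BxJ* below the control and *EP1306* overlapping it. For *CG40485* the second probe set had 2163, 1795 and 1984 in *EP1306*, 1792, 1742 and 1364 in *BxJ*, and 2071, 1777 and 1649 in the control, with the means in the same order and the arrays overlapping. *CG5953* (62.1 to 139 over all arrays), *CG42367* and the other two of *CG17364* did not follow their members.

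**Figure D4:**
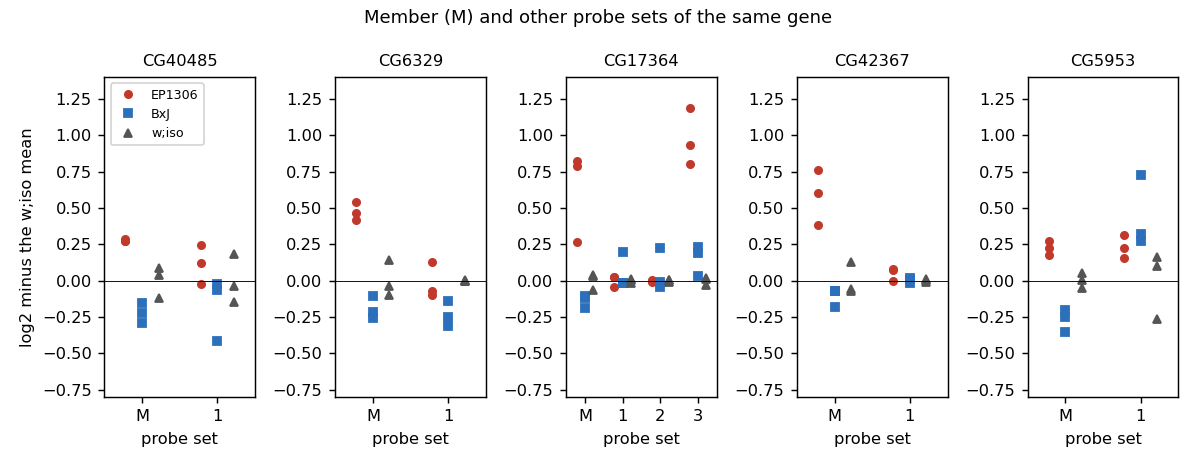
The member probe set (M) and the other probe sets (numbered) of 5 genes, as log2(intensity + 16) minus the control mean of each probe set. Points are arrays, with *EP1306* (red circles) left of *BxJ* (blue squares) and the control (grey triangles), and none of the 7 other probe sets separates the 3 groups in the order of its member.

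Single arrays weighed unevenly on the members. *EP1306* replicate 3 was the highest of its genotype in 16 of 27 members, where it was so in 34.1% of all probe sets, and its median deviation from the genotype mean was 0.09 over the members, against -0.01 over all probe sets. The corresponding medians over the members were -0.04 for replicate 1 and -0.06 for replicate 2. *BxJ* replicate 3 was the highest of its genotype in 13 members, where it was so in 35.1% of all probe sets, with a median deviation of 0.03. Without *EP1306* replicate 3, the median excess of *EP1306* over the control was 0.40 in place of 0.47, and 25 of 27 members kept a difference of 0.4 between the mutants.

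**Figure D5:**
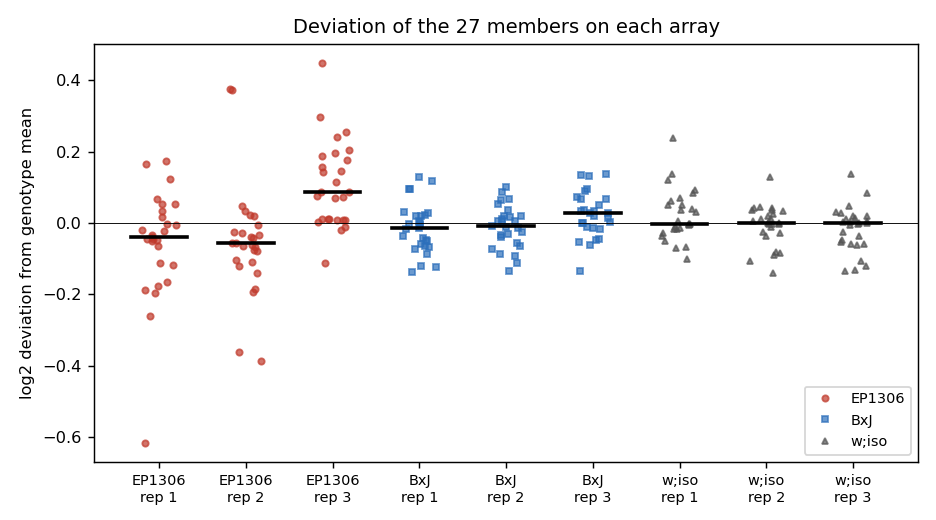
Deviation of each member from its genotype mean, in log2 units, on each of the 9 arrays. Points are the 27 members, black bars are medians, and the bar of *EP1306* replicate 3 is the highest (0.09).

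The members were spread over the genome. Of 23 with a chromosome, 2 lie on X (8.70%, against 16.2% of all placed probe sets), 5 on 2L (21.7%, against 18.2%), 5 on 2R (21.7%, against 20.2%), 5 on 3L (21.7%, against 19.7%), 6 on 3R (26.1%, against 25.2%) and 0 on the fourth (against 0.605%). Of 38 genes directly beside a member and read on the arrays, 0 had the order, where 0.336% of all probe sets did. Of the 38, 1, *CG18343*, exceeded 0.4 between *EP1306* and *BxJ*, where 1.35% of all probe sets did.

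None of 17 gene lists, with 247 genes read, held a member or a gene with the full order. Over all probe sets, 0.336% had that order and 0.144% were members, so finding none among so few genes is near that share. The lists covered dLMO and its partners, cAMP signaling, activity-regulated and circadian genes, eye pigments, ion channels and receptors, tetraspanins and 10 sets of cell type markers. Of the 15 genes measured for dLMO and its partners, only *Bx* passed in any contrast, and their median difference between the mutants was 0.02. Among 10 photoreceptor markers, 6 had means in the order of the members, with a median difference between the mutants of 0.12. Means in that order were found in 17.3% of all probe sets and in 43 of the 247 list genes (17.4%). They were found in 2 of 14 neuronal and 1 of 9 glial markers, and in 0 of the fat body, muscle, accessory gland and midgut lists. The 7 activity-regulated genes measured had a larger median difference of 0.34 with 3 in that order, and only *cbt* passed between the mutants (0.38, limma, adjusted p = 0.04184), a call lost in 11 of 18 alternative fits, including those without any 1 array other than *w;iso* replicate 3 (adjusted p up to 0.1681). *rdgB*, a phosphatidylinositol transfer protein gene needed for phototransduction, was higher in *EP1306* than in *BxJ* by 0.50 (limma, adjusted p = 0.03344), a call lost in 10 of 18 alternative fits, including those without *EP1306* replicate 2 or 3, *BxJ* replicate 1 or 2 and *w;iso* replicate 2 or 3 (adjusted p up to 0.1261). Accessory gland transcripts were highest in *BxJ*, where the members were lowest. Without the richest array of each genotype (*EP1306* replicate 1, *BxJ* replicate 3 and *w;iso* replicate 2), all 27 members kept their difference of 0.4, while an order once met cannot be lost by leaving out arrays. The arrays that remained still differed in mean accessory gland signal. It was 7.38 and 6.93 in *BxJ*, 5.71 and 5.62 in *EP1306*, and 5.65 and 5.75 in the control. The comparison therefore did not remove that difference, and its bearing on the members was not tested.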

How the data were processed

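The authors processed the arrays with MAS5 (no version given) and deposited 1 linear intensity for each of 18952 probe sets and 9 arrays. The study's methods also mention normalization, by reference to another paper, and whether the deposited intensities include it is not stated. The 183 control probe sets were left out and log2(intensity + 16) was taken, with no scaling between arrays (Python 3.11.15). All 9 arrays, with a mean per genotype, entered a fit with limma 3.58.1 in R 4.3.3 (lmFit, contrasts.fit, eBayes with the intensity trend), and p-values were Benjamini-Hochberg adjusted over 18769 probe sets and called below 0.05. For arrays, the number of replicates limits the precision.

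Members and gene lists were chosen with earlier results of these data known. By the rule for named genes (largest *EP1306* minus *BxJ* difference, members nearest the limit, *Bx*), all 23 members with a gene name are described. Names came from the array annotation (13649 probe sets with 1 symbol), updated through a RefSeq table of assembly Release 6, which also gave chromosomes and gene order. The files name no genome build, so no coordinates are given. For lists, the brightest probe set of each gene was used. Alternatives were other pseudocounts, quantile normalization, median centring, a filter on dim probe sets, other limits, the replicate number as a block, the methods' t-test and leaving out each array. The t-test served for counts only and is not among the alternative fits given for single genes.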

Additional observations from a re-analysis of the deposited data

How the results depend on the processing

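Other scaling changed which probe sets met the rule. The rule gave 32 members with a pseudocount of 1, 19 with 64, 34 with none, 35 after quantile normalization (22 shared with the 27) and 33 after median centring (24 shared). With a limit of 0.6 it gave 17. With 1 array left out it gave 28 to 52, highest without *EP1306* replicate 1 (52) and *w;iso* replicate 3 (42), and 114 without the 3 arrays richest in accessory gland transcripts, an alternative chosen after seeing the data, since fewer arrays make an order easier to meet. Of 27 members, 15 met the rule in all 16 alternatives that kept the limit of 0.4, and each of the 9 dim members failed it in at least 2, of which the filter on dim probe sets is 1 by construction. Changing the pseudocount or leaving out arrays cannot break an order once met, so there only the difference of 0.4 could fail. Only quantile normalization and median centring could reorder the arrays of a member, and 22 and 24 of the 27 members kept the full order there. Under both, the mutant means stayed on opposite sides of the control in all 27. *EP1306* was the farther mutant in 19 to 21 members with 1 array left out, and in 12 of 18 after the filter on dim probe sets.

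Members passing in *BxJ* against the control numbered 1 with a pseudocount of 1, quantile normalization, median centring, the block, only the 2 genotypes in the fit, and any 1 array left out (1 to 1), 0 without the 3 arrays, and 17 by the methods' t-test unadjusted (0 adjusted). In *EP1306* against the control they numbered 6 with only the 2 genotypes, 6 to 11 with 1 array left out (6 without *w;iso* replicate 2), 4 without the 3 arrays, and 24 by the methods' t-test unadjusted (1 adjusted). Between the mutants they numbered 18 to 22 with 1 array left out, 15 without the 3 arrays and 2 by the adjusted t-test. Deviations of same-numbered arrays correlated at -0.376 to 0.289, with no common sign, which cannot show whether the numbers pair samples. The block left 1, 12 and 22 members passing in the 3 contrasts. Of 26 calls of single genes outside the members, 5 held in all 18 alternative limma fits, which do not include the methods' t-test. With adjusted p, that t-test called 0.0586% of all probe sets in *EP1306* against the control, 0.133% between the mutants and 0 in *BxJ* against the control. Causes of these changes were not tested. The count of promoter motifs, with its alternative, was not run.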

Other observations

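Pairs of members stood near each other on arm 3R. *CG14853* and *l(3)L1231* are 5 positions apart in the gene order, and the 2 genes read between them, *put* and *CG7886*, had differences between *EP1306* and *BxJ* of 0.04 and -0.07. *CG31036* and *CG7824* are 8 positions apart, and the 6 genes read between them ranged from -0.80 to 0.13. The gene at -0.80 was *CG15515*, directly beside *CG31036*, with 167, 159 and 203 in *EP1306*, 363, 327 and 271 in *BxJ*, and 279, 212 and 188 in the control (limma, adjusted p = 0.07099).

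Of 247 genes on the lists, 5 (2.02%) were lower in *EP1306* than in the control, where 0.687% of all probe sets were. The shares are not alike in brightness, since the lists use the brightest probe set of each gene. After the filter on dim probe sets, 5.36% of probe sets passed in this contrast in either direction, against 1.14% of all. The most displaced of the 5 was *Obp99b*, an odorant-binding protein gene (-2.44, limma, adjusted p = 0.005741, lost in 1 of 18 alternative fits). *Obp56e* of the same family, which stood on the male accessory gland list, was also lower (-0.57, limma, adjusted p = 0.0145). Its call was lost in 5 fits, including those without *EP1306* replicate 2 or 3 and without *w;iso* replicate 2. The other 3 were muscle genes, *Mlp84B*, a muscle LIM protein (-0.75, adjusted p = 0.0006979), *Act88F*, the actin of flight muscle (-0.83, adjusted p = 0.003823), and the troponin C gene *TpnC73F* (-0.90, adjusted p = 0.02823). The calls held in 18 of 18 alternative fits for *Mlp84B*, 17 for *Act88F* and 9 for *TpnC73F*, whose call was lost without any 1 of the *EP1306* arrays, *BxJ* replicate 3 or *w;iso* replicate 2 or 3 (adjusted p up to 0.2295). None of the 15 muscle genes measured had means in the order of the members. *Crtc*, a coactivator of CREB, was higher in *EP1306* than in the control (0.78, adjusted p = 0.03804), with the call lost in 11 of 18 alternative fits, including those without *EP1306* replicate 1 or 3 and without any other single array except *EP1306* replicate 2 (adjusted p up to 0.3738).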
